A study of Capra hircus with 8 samples.

Results

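The 9 hormone-response genes DIO2, DIO3, THRA, THRB, PRLR, ESR1, GREB1, NR3C1 and PTH1R were followed in goat skin over 4 months and between 2 breeds. They were chosen by gene symbol, and all 9 are among the 18815 genes listed and among the 14085 genes tested. RNA sequencing of polyadenylated RNA was done on skin samples of cashmere goats, a breed kept for its fine undercoat, and of milk goats in months 3, 6, 9 and 12. There was 1 library for each breed and month, so 8 in all: cashmere goats at months 3, 6, 9 and 12, and milk goats at months 3, 6, 9 and 12. No treatment or genetic change is named for any group. The title of the study concerns the seasonal hair follicle cycle, and its comparisons are between breeds and between months. The labels give the month as an age while the design speaks of months, so calendar month and age cannot be told apart here. They do not say how many animals stand behind a library, and the protocol text mentions embryos although the tissue is given as skin. No breed and month has a second library, so each p-value rests on how these 8 libraries scatter once the model is fitted. In the month and breed model that scatter includes any breed difference that varies with month, and it may be partly technical. It cannot be split into these parts or into differences among animals. The tests also draw on the spread of other genes.

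Thyroid hormone reaches its target cells mainly as the prohormone T4, which DIO2 (type 2 deiodinase) converts to the active T3, while DIO3 (type 3 deiodinase) inactivates both. THRA and THRB encode the nuclear receptors that bind T3. In the hypothalamus of seasonal mammals these deiodinases form part of the relay from day length to the body, and prolactin from the pituitary, which acts through PRLR, is known to vary with day length and to act on pelage growth in mice, sheep and goats. ESR1 is the oestrogen receptor alpha, and GREB1 is a cofactor of that receptor and an oestrogen-induced gene, known from human breast cancer cells. NR3C1 is the glucocorticoid receptor. PTH1R is the shared receptor of parathyroid hormone and of parathyroid hormone-related protein, and the related protein is made by epidermal and follicle keratinocytes in mice.

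The cashmere goat libraries held 7480053 to 8718429 reads on genes and the milk goat libraries 11333734 to 13899750. Levels are given as counts per 1000000 reads (CPM) after TMM scaling, which takes library composition into account; the scaled size was 100% to 113% of the total in cashmere goats and 78.3% to 108% in milk goats, with 78.3% in milk goats at month 9. A count of 0 would allow up to 3 reads, which is 0.344 to 0.395 CPM in cashmere goats and 0.231 to 0.276 CPM in milk goats, and no member was at 0 in any library. Intervals of single libraries are exact 95% intervals, cover counting error only, and treat PCR reads without molecular identifiers as independent molecules, which they are not. Markers of the main cell types of skin were present in every library. The summed level of hair shaft and inner root sheath markers (8 of 15 listed genes in the table) ran from 22381 to 74189 CPM in cashmere goats and from 2946 to 174690 CPM in milk goats, lowest in milk goats at month 12 and highest in milk goats at month 9. Smooth muscle and pericyte markers (7 of 7 genes) summed to 1583 to 2749 CPM in cashmere goats and to 2834 to 4482 CPM in milk goats, with no overlap. Skeletal muscle markers (5 of 7 genes) summed to 62.8 CPM in milk goats at month 12 and to at most 3.31 CPM in the other libraries. The one pituitary marker in the table had 0 to 9 reads.

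The breed comparison, cashmere over milk goats with month as a covariate, gave no call among the 9 members with edgeR's quasi-likelihood test at an adjusted p under 0.05, whereas 675 of all 14085 genes (4.79%) were called. At an unadjusted p under 0.05 there were 4 of the 9 members, DIO2, THRA, GREB1 and PTH1R, against 26.9% of all genes. The median log2 fold change was -0.17 over the 9 members and 0.03 over all genes. DESeq2, run as an alternative, called PTH1R alone among the members (adjusted p = 0.00929) and 12% of all genes.

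**Figure D1:**
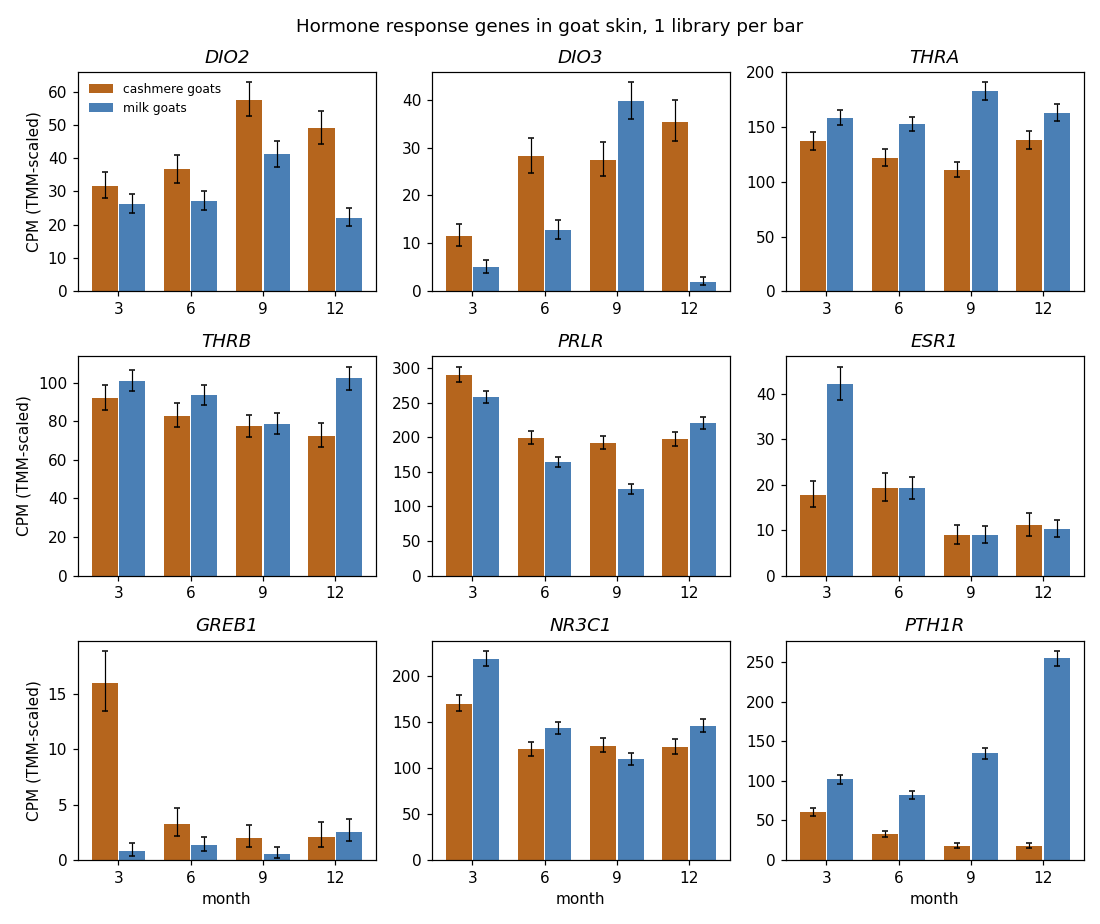
TMM-scaled CPM (vertical axes, linear, each from 0) of the 9 genes by month, with cashmere goats in brown and milk goats in blue; each bar is 1 library and error bars are exact 95% counting intervals. PTH1R was lower in cashmere goats in every month, DIO2 was higher in every month, and the GREB1 bar of cashmere goats at month 3 stands at 16.0 CPM against 0.814 CPM in milk goats.

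Of the deiodinases, DIO2 (gene10214) had the higher level in cashmere goats in 4 of 4 months. It had 31.7, 36.6, 57.5 and 49.0 CPM in cashmere goats at months 3, 6, 9 and 12, against 26.3, 27.2, 41.2 and 22.1 CPM in milk goats, from 251 to 502 reads. Month 9 was the highest month of both breeds, and the breeds overlapped on this scale, because the milk goat library of month 9 lay above the month 3 and month 6 libraries of cashmere goats. When TMM scaling was left out, in CPM by library totals and in the FPKM (fragments per kilobase of gene and per 1000000 mapped) that the authors deposited, all 4 cashmere goat libraries lay above all 4 milk goat libraries, at 2.94 to 4.98 FPKM against 1.62 to 2.60 FPKM. In TMM-scaled CPM 6.46% of all genes had every cashmere goat library above every milk goat library, and no member did. The matching share with library totals or in FPKM was not computed. On both of those scales the median breed effect of all genes lay further towards cashmere goats than with TMM scaling. The means were 43.7 ± 11.7 CPM in cashmere goats and 29.2 ± 8.29 CPM in milk goats (SD over months, n = 4 each). The log2 fold change between breeds was 0.58 ± 0.17 (SE), a 1.49-fold higher level, with an adjusted p = 0.0881 that misses the threshold. Month by month the ratio was 1.21 (95% interval 1.02 to 1.42) at month 3, 1.35 (1.15 to 1.57) at month 6, 1.40 (1.23 to 1.59) at month 9 and 2.22 (1.88 to 2.61) at month 12.

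DIO3 (gene21208) varied most over the months in milk goats. In the first gene table it had 11.6, 28.2, 27.5 and 35.4 CPM in cashmere goats at months 3, 6, 9 and 12, against 5.05, 12.9, 39.7 and 2.03 CPM in milk goats. The lowest value, in milk goats at month 12, rests on 23 reads, and the highest milk goat value, at month 9, on 432 reads. The highest month stood 3.06-fold above the lowest in cashmere goats, and 19.6-fold above it in milk goats, and the breeds overlapped. At month 12 the level was 17.5-fold higher in cashmere goats (95% interval 11.4 to 28.1), while at month 9 it was 1.44-fold higher in milk goats (1.23 to 1.70). The breed effect was 1.30 ± 0.64 on the log2 scale (adjusted p = 0.236), with a higher level in cashmere goats in 3 of 4 months. It rested on the libraries of months 9 and 12: the effect was 0.54 and 0.51 when the cashmere or the milk goat library of month 12 was left out, and 2.01 and 2.02 when that of month 9 was. The authors also deposited another gene table for the same libraries, which differed at month 9. There DIO3 had 2.002, 7.23, 8.81 and 6.33 CPM in cashmere goats at months 3, 6, 9 and 12, against 0.678, 2.61, 5.02 and 0.0994 CPM in milk goats, so it was higher in cashmere goats in 4 of 4 months. Its month 9 ratio there was 1.76 (95% interval 1.34 to 2.30), from 126 reads in cashmere goats and 105 in milk goats, and its month 12 ratio was 63.7 (17.1 to 534), from 91 reads in cashmere goats and 2 in milk goats. The summed hair shaft and inner root sheath markers were 22381, 54238, 58474 and 74189 CPM in cashmere goats at months 3, 6, 9 and 12, against 9990, 62882, 174690 and 2946 CPM in milk goats. In milk goats the 4 months had the same order for DIO3 and for these markers, and in cashmere goats the order differed only between months 6 and 9. The part of these markers in the DIO3 values was not tested.

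**Figure D2:**
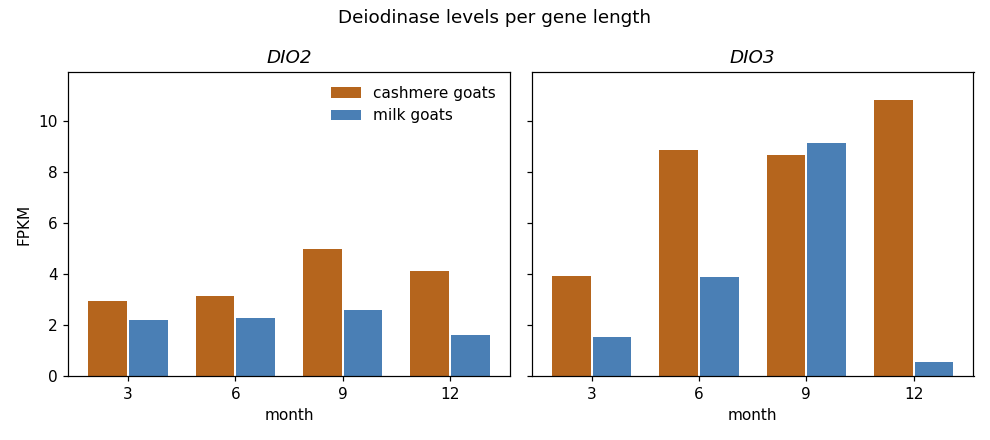
Deposited FPKM (vertical axis, linear, shared by both panels) of DIO2 and DIO3 by month, with cashmere goats in brown and milk goats in blue and 1 library per bar. DIO3 stood above DIO2 in all 4 cashmere goat libraries and in milk goats at months 6 and 9, and below DIO2 in milk goats at months 3 and 12.

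Per length, the inactivating and the activating deiodinase stood in different order in the libraries. In FPKM, DIO3 was 1.33, 2.81, 1.74 and 2.63 times DIO2 in cashmere goats over the 4 months. The milk goat values were 0.699, 1.72, 3.52 and 0.333 times DIO2 in the same order of months. DIO3 was thus the lower of the pair in milk goats at months 3 and 12 only. The third deiodinase, DIO1, another member of the thyroid list that was picked after its values were seen, had 34 to 125 reads in cashmere goats and 40 to 106 reads in milk goats (breed effect 0.75 ± 0.46, adjusted p = 0.330). In the reference annotation of another build, DIO2 and DIO3 each overlap an uncharacterised locus that is not in the count table, and whether the counting used strand is not given in the sources used here, so reads of such a pair cannot be told apart.

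The nuclear receptors of thyroid hormone had the smallest ranges over the months among the members. THRA (gene19529) had 137, 122, 111 and 138 CPM in cashmere goats at months 3, 6, 9 and 12, against 159, 153, 183 and 163 CPM in milk goats. All 4 cashmere goat libraries lay below all 4 milk goat libraries, as did 8.02% of all genes; among the members this held for THRA and PTH1R. With library totals and in FPKM the breeds overlapped for THRA, at 13.5 to 17.8 FPKM in cashmere goats against 16.2 to 18.5 FPKM in milk goats. On both of those scales month 9 was the lowest milk goat month for THRA, while with TMM scaling it was the highest. The means were 127 ± 12.9 CPM in cashmere goats and 164 ± 13.0 CPM in milk goats (SD, n = 4 each), a log2 fold change of -0.37 ± 0.14 (adjusted p = 0.153). Its highest and lowest month differed 1.24-fold in cashmere goats, against 1.20-fold in milk goats, the smallest range of the 9 members in each breed. THRB (gene24705) had 92.4, 83.0, 77.4 and 72.7 CPM in cashmere goats, against 101, 93.7, 78.7 and 102 CPM in milk goats, and the breeds overlapped. Its breed effect was -0.21 ± 0.13 (adjusted p = 0.347), and it turned to 0.01 in FPKM. Per length, THRA stood 2.12 to 2.80 times as high as THRB in cashmere goats and 2.32 to 3.42 times as high in milk goats, with 3.42 in milk goats at month 9.

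Around these genes, a list of other thyroid hormone genes (DIO1, transporters, receptor partners, coregulators and responsive genes) had 20 tested genes of 22, and its median log2 fold change between breeds was 0.07, against 0.03 over all genes. Between breeds 5 of the 20 had an unadjusted p under 0.05 in edgeR, against 26.9% of all genes. Calls of this list between breeds are not reported here. Between month 9 and month 3 edgeR called no gene of the list (5 at an unadjusted p under 0.05) and DESeq2 called SLC7A5. The largest values there belonged to SLC7A8 and SLC7A5, amino acid transporters that also carry thyroid hormone, at 2.17 ± 0.78 (adjusted p = 0.160) and 1.95 ± 0.45 (adjusted p = 0.117).

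Prolactin receptor was among the more abundant members and was highest at month 3 in both breeds. PRLR (gene20411) had 291, 199, 192 and 198 CPM in cashmere goats at months 3, 6, 9 and 12, against 258, 164, 125 and 221 CPM in milk goats, from 1360 to 3170 reads. Month 9 was its lowest month in both breeds. In cashmere goats the 3 later months lay between 192 and 199 CPM and month 3 stood apart, while in milk goats the level at month 12 lay between those of months 3 and 6. In the first gene table month 3 was the highest month of both breeds for 13.5% of all genes, and for PRLR and NR3C1 among the members. The breed effect was 0.23 ± 0.16 (adjusted p = 0.403), and the level was higher in cashmere goats in 3 of 4 months, with a ratio of 1.54 (95% interval 1.43 to 1.65) at month 9 and 0.896 (0.840 to 0.955) at month 12. Of the prolactin and growth hormone receptor list, 10 of 12 genes were tested and edgeR called none between breeds (1 at an unadjusted p under 0.05, which DESeq2 called; median log2 fold change 0.15, against 0.03 over all genes); prolactin itself was not analysed here. That gene was CISH, a feedback inhibitor of STAT5 signalling, at 0.67 ± 0.17 (adjusted p = 0.0664), with 17.7 ± 3.26 CPM in cashmere goats and 11.1 ± 2.28 CPM in milk goats (SD, n = 4 each). ELF5, a transcription factor known as a prolactin target in the mammary gland of mice, came next at 0.62 ± 0.33 (adjusted p = 0.271). For month 9 over month 3 edgeR called none of the list (3 at an unadjusted p under 0.05) and DESeq2 called 3, 1 higher and 2 lower at month 9, among them ELF5 at 1.84 ± 0.47 (adjusted p = 0.119 in edgeR) and SOCS2, another inhibitor of STAT5 signalling, at -1.20 ± 0.32 (adjusted p = 0.119 in edgeR).

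In the first gene table the ESR1 levels of the breeds stood apart at month 3, and at the later months the counting intervals of the ratios held 1. There ESR1 (gene10037) had 17.9, 19.4, 8.94 and 11.1 CPM in cashmere goats at months 3, 6, 9 and 12, against 42.3, 19.3, 8.92 and 10.3 CPM in milk goats, from 78 to 519 reads. The cashmere goat level at month 3 was 0.423 of the milk goat level (95% interval 0.351 to 0.506), and at months 6, 9 and 12 the ratios were 1.01 (0.821 to 1.23), 1.002 (0.734 to 1.36) and 1.07 (0.801 to 1.43). The breed effect over all months was -0.30 ± 0.25 (adjusted p = 0.482), and it became 0.02 with the month 3 library of cashmere goats left out and 0.04 with that of milk goats left out. In the other gene table ESR1 was lower in cashmere goats in every month, at 22.7, 17.7, 10.9 and 12.4 CPM in cashmere goats at months 3, 6, 9 and 12, against 50.8, 33.5, 26.9 and 55.0 CPM in milk goats, and the breed effect there was called (-1.38 ± 0.21, adjusted p = 0.0196). In the same milk goat library of month 3, smooth muscle and pericyte markers (4482 CPM) and endothelial markers (726 CPM, 6 of 6 genes) were at their highest of the 8 libraries. Fibroblast markers (7 of 7 genes) summed to 19480 CPM there, against 8699 CPM at month 3 and 33508 CPM at month 6 in cashmere goats. The part of these markers in the ESR1 value was not tested. In bulk skin, fewer cells of a type and less RNA per cell cannot be told apart.

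GREB1 (gene12095), the least abundant member, showed the opposite contrast at month 3. It had 140, 27, 17 and 16 reads in cashmere goats at months 3, 6, 9 and 12, against 10, 17, 6 and 29 reads in milk goats. These are 16.0, 3.25, 1.95 and 2.11 CPM in cashmere goats, against 0.814, 1.31, 0.552 and 2.55 CPM in milk goats. The cashmere goat library of month 3 stood far above the other 7, which lay between 0.552 and 3.25 CPM, so the breeds overlapped outside it. The ratio at month 3 was 19.7 (95% interval 10.4 to 41.9), against 2.48 (1.30 to 4.86) at month 6, 3.53 (1.33 to 10.9) at month 9 and 0.825 (0.418 to 1.57) at month 12. In the other gene table the month 3 ratio was 6.63 (4.76 to 9.43), from 11.6 CPM (192 reads) in cashmere goats and 1.76 CPM (44 reads) in milk goats. The breed effect was 1.77 ± 0.70 (adjusted p = 0.163), it was 0.85 (adjusted p = 0.402) without that library, and with the month 12 library of cashmere goats left out it was called, at 2.63 (adjusted p = 0.0482), with 6.05% of all genes called in that fit. In the first gene table GREB1 was thus highest where ESR1 was 2.37-fold lower than in milk goats. The library of cashmere goats at month 3 was not the highest of the 8 in any of the cell type marker lists, but it was close to the highest in 1 of them. Its sweat and other gland markers summed to 190 CPM, against 191 CPM in cashmere goats at month 6. Its endothelial markers summed to 586 CPM, against 726 CPM in milk goats at month 3. The part of cell composition in the GREB1 value was not tested.

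None of the 20 tested genes (of 28 listed) of the oestrogen, progesterone and androgen axis was called between the breeds by edgeR (2 at an unadjusted p under 0.05; DESeq2 called STC2), with a median log2 fold change of 0.08, against 0.03 over all genes. STC2, stanniocalcin 2, an oestrogen-responsive secreted protein in human breast cancer cells, had the largest value at -0.74 ± 0.17 (adjusted p = 0.0528), with 12.9 ± 6.29 CPM in cashmere goats and 21.0 ± 8.19 CPM in milk goats (SD, n = 4 each). PGR, the progesterone receptor, followed at -0.49 ± 0.47 (adjusted p = 0.540). Between month 9 and month 3 edgeR again called none (7 at an unadjusted p under 0.05; DESeq2 called 4, 2 higher and 2 lower at month 9, STC2 among the lower). FOXA1, a pioneer factor of oestrogen receptor binding, was at -1.65 ± 0.66 (adjusted p = 0.189) and STC2 at -1.30 ± 0.24 (adjusted p = 0.108).

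NR3C1 (gene7389), the glucocorticoid receptor, had 170, 120, 124 and 123 CPM in cashmere goats at months 3, 6, 9 and 12, against 218, 143, 109 and 145 CPM in milk goats. In the first gene table month 3 was the highest month of both breeds, and as for PRLR the 3 later cashmere goat libraries lay close together. In the other gene table the milk goat level of NR3C1 was highest at month 12, at 236 CPM, against 125 CPM at month 3. The breeds overlapped, the breed effect was -0.17 ± 0.14 (adjusted p = 0.478), and it turned to 0.03 and 0.04 in FPKM at the 2 pseudocounts used. Of the glucocorticoid list (16 tested of 21) edgeR called 2 genes, against 4.79% of all genes, both higher in cashmere goats and both induced by glucocorticoids among other signals. The median of the list was -0.16, against 0.03 over all genes. DESeq2 called 4 of the list, the same 2 higher and 2 lower in cashmere goats, against 12% of all genes. The lower ones were HSP90AA1 and HSP90AB1, chaperones that hold the unbound receptor, at -0.93 ± 0.30 (adjusted p = 0.105) and -0.92 ± 0.28 (adjusted p = 0.0964) in edgeR. DUSP1, a phosphatase that inactivates MAP kinases, rose to 57.1 ± 18.8 CPM in cashmere goats, against 29.1 ± 4.86 CPM in milk goats (SD, n = 4 each; log2 fold change 0.93 ± 0.14, adjusted p = 0.0276). SGK1, a kinase that controls sodium channels, rose to 72.0 ± 22.2 CPM in cashmere goats, against 35.4 ± 11.0 CPM in milk goats (1.01 ± 0.20, adjusted p = 0.0390). For month 9 over month 3 edgeR called none of the list (8 at an unadjusted p under 0.05) and DESeq2 called 4, of which 2 were higher at month 9 and 2 lower. The higher ones were SGK1 and GADD45A, a stress-induced growth arrest gene, at 0.94 ± 0.28 (adjusted p = 0.126) and 0.88 ± 0.25 (adjusted p = 0.124) in edgeR. The lower ones were the glucocorticoid-induced genes ZBTB16, a zinc finger repressor, and CRISPLD2, a secreted protein, at -1.54 ± 0.43 (adjusted p = 0.121) and -1.01 ± 0.28 (adjusted p = 0.119) in edgeR.

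PTH1R had lower levels in cashmere goats in 4 of 4 months and, in the edgeR fit of the first gene table with all 8 libraries, the largest breed effect of the 9 members. PTH1R (gene21811) had 60.7, 33.0, 18.0 and 18.2 CPM in cashmere goats at months 3, 6, 9 and 12, against 102, 82.1, 135 and 255 CPM in milk goats, from 138 to 2891 reads. Each cashmere goat library lay below each milk goat library, also with RLE factors, with library totals, with TMM factors computed without hair genes, and in FPKM (3.13 to 11.5 FPKM against 14.0 to 38.2 FPKM). The cashmere goat level was highest at month 3 and lowest at months 9 and 12, while the milk goat level was highest at month 12. The milk goat level was 1.68-fold (95% interval 1.51 to 1.86), 2.49-fold (2.18 to 2.85), 7.50-fold (6.36 to 8.90) and 14.0-fold (11.8 to 16.7) above the cashmere goat level at months 3, 6, 9 and 12. The means were 32.5 ± 20.1 CPM in cashmere goats and 143 ± 77.3 CPM in milk goats (SD, n = 4 each), a log2 fold change of -2.17 ± 0.50, or 4.49-fold, with an adjusted p = 0.0549 just above the threshold. In the other gene table the difference was smaller, with 20.1, 14.9, 10.8 and 9.88 CPM in cashmere goats at months 3, 6, 9 and 12, against 26.5, 24.9, 23.5 and 40.7 CPM in milk goats. The milk goat level there was 1.32-fold, 1.66-fold, 2.18-fold and 4.12-fold above the cashmere goat level, and the effect of -1.06 was smaller in size than those of DIO3 (1.94), ESR1 (-1.38), GREB1 (1.14) and NR3C1 (-1.11). In the first table without both libraries of month 12 it was -1.62 for PTH1R and 2.63 for GREB1.

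PTH1R passed the breed threshold with library totals, with no filter, without month in the model, with DESeq2 and with limma on log2 FPKM, and it did not pass in any of the 8 fits that left out 1 library (adjusted p 0.0509 to 0.167). Of these fits, those without a library of month 12 called 6.05% and 5.28% of all genes between breeds. The others called 0% to 0.0284% of all genes, so almost no gene could be called in them. The smooth muscle and pericyte markers, given above, also did not overlap between the breeds, and skeletal muscle and nerve markers (220 CPM, 6 of 6 genes) were highest in the milk goat library of month 12; their part in the PTH1R difference was not tested. In the test of a breed by season interaction, on a 12-month cosine and sine cycle with 2 residual degrees of freedom, no gene of 14085 was called (0%) and PTH1R had an adjusted p = 0.223. It was the only member at an unadjusted p under 0.05, against 6.42% of all genes. It was called by DESeq2 (adjusted p = 0.000179, with 0.568% of genes called) and by edgeR with no filter on low counts (adjusted p = 0.00818). It was not called in the other gene table (adjusted p = 0.856), with a 2-level season of months 3 and 12 against months 6 and 9 (adjusted p = 0.99992), or with limma on log2 FPKM (adjusted p 0.447 and 0.468). With 1 library left out, which leaves 1 residual degree of freedom, edgeR called it in 5 of 8 fits (adjusted p 0.0114 to 0.0307) and not in the other 3 (0.0740 to 0.180), and those 8 fits called 0.265% to 3.56% of all genes. The parathyroid hormone and vitamin D list had 6 tested genes of 12, of which edgeR called 1, lower in cashmere goats, and the median log2 fold change was 0.10, against 0.03 over all genes. DESeq2 called 2, RAMP3 lower and CASR, the calcium-sensing receptor, higher in cashmere goats. In edgeR the breed effect of CASR was 2.05 ± 0.71 (adjusted p = 0.125). PTHLH, which encodes the ligand parathyroid hormone-related protein and was picked after its values were seen, had 1.32, 1.46, 1.66 and 1.08 FPKM in cashmere goats at months 3, 6, 9 and 12, against 1.68, 1.31, 1.12 and 1.52 FPKM in milk goats, and its breed effect was -0.24 ± 0.21 (adjusted p = 0.502). The levels of the ligand gene overlapped between the breeds, unlike those of its receptor gene. RAMP3, a receptor activity-modifying protein, fell to 22.2 ± 12.2 CPM in cashmere goats, against 45.5 ± 20.5 CPM in milk goats (SD, n = 4 each; -1.05 ± 0.21, adjusted p = 0.0429). For month 9 over month 3 edgeR called none of the list (3 at an unadjusted p under 0.05). DESeq2 called 3, with SLC9A3R1 and VDR, the vitamin D receptor, higher at month 9 and RAMP3 lower. SLC9A3R1, a scaffold protein that binds PTH1R, was at 1.55 ± 0.28 in edgeR (adjusted p = 0.108). CASR, which DESeq2 did not call in this contrast, was at 1.64 ± 1.01 in edgeR (adjusted p = 0.353). The called list genes DUSP1, SGK1 and RAMP3 each kept their direction in all 8 fits without 1 library but passed the threshold in only 2 of them, those without a library of month 12. In the other fits at most 0.0284% of all genes passed.

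**Figure D3:**
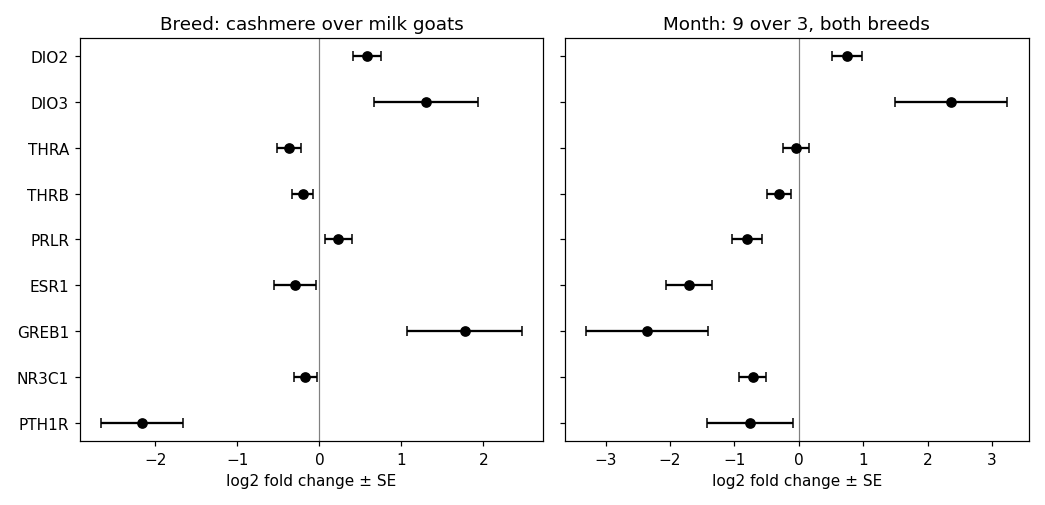
Log2 fold change ± SE from the edgeR fit for the 9 genes, for breed (cashmere over milk goats, left) and month (9 over 3, both breeds together, right), with the vertical line at 0. PTH1R lies farthest below 0 for breed at -2.17, and for month DIO3 lies farthest above 0 at 2.37 and GREB1 farthest below at -2.35; none passed the adjusted threshold.

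The month comparisons asked whether these genes varied over the sampled months in both breeds together. No gene of 14085 (0%) was called by edgeR for any difference among the months, for month 9 over month 3 or for month 12 over month 6, and so no member was. For any difference among the months 3 of the 9 members, ESR1 (adjusted p = 0.324), NR3C1 (adjusted p = 0.354) and PRLR (adjusted p = 0.365), had an unadjusted p under 0.05, against 13.4% of all genes, and DESeq2 called ESR1 (adjusted p = 0.00602) with 3.81% of all genes. For month 12 over month 6 only ESR1 did, at -0.86 ± 0.36 (adjusted p = 0.640), against 7.6% of all genes, and DESeq2 called no member.

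The contrast of month 9 with month 3 held the larger month values of the members. An unadjusted p under 0.05 was found for 6 of 9 members, against 23.6% of all genes, and the median log2 fold change was -0.72 over the members and 0.00 over all genes. Both deiodinases had higher values at month 9, DIO2 at 0.75 ± 0.24 (adjusted p = 0.131) and DIO3 at 2.37 ± 0.87 (adjusted p = 0.164), and both were higher at month 9 than at month 3 in each breed. The size of the DIO2 value depended on scaling. It was 0.42 in edgeR with library totals, and 0.39 and 0.49 with limma on log2 FPKM at pseudocounts 1 and 0.1. The unadjusted p of DIO2 was 0.124 to 0.141 in these edgeR and limma fits. The DIO3 value was 0.80 with the month 9 library of milk goats left out and 3.37 with that of cashmere goats left out. The receptors had lower values, ESR1 at -1.70 ± 0.36 (adjusted p = 0.109), PRLR at -0.81 ± 0.23 (adjusted p = 0.124) and NR3C1 at -0.72 ± 0.21 (adjusted p = 0.124), again in each breed. GREB1 was at -2.35 ± 0.95 (adjusted p = 0.192), and its value with the month 3 library of cashmere goats left out was 0.03. THRA, THRB and PTH1R were at -0.04 ± 0.20, -0.31 ± 0.19 and -0.76 ± 0.67 (adjusted p 0.347 to 0.919), and the values of THRA and PTH1R turned to 0.07 and 0.31 when the month 3 library of cashmere goats was left out. Marker levels of several cell types also differed between these months. Endothelial markers summed to 272 CPM at month 9 and 586 CPM at month 3 in cashmere goats, and to 219 CPM at month 9 and 726 CPM at month 3 in milk goats. Smooth muscle and pericyte markers summed to 1583 CPM at month 9 and 2749 CPM at month 3 in cashmere goats, and to 3043 CPM at month 9 and 4482 CPM at month 3 in milk goats. Fibroblast markers summed to 5232 CPM at month 9 and 8699 CPM at month 3 in cashmere goats. In milk goats they summed to 9470 CPM at month 9 and 19480 CPM at month 3. Hair shaft and inner root sheath markers were higher at month 9 in both breeds, at the values given beside DIO3. The part of these markers in the month differences was not tested.

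Calls between month 9 and month 3 depended on the libraries of month 12, which the contrast itself does not use but which enter the estimate of spread. DESeq2 called ESR1 (adjusted p = 0.00285), PRLR (0.0267) and NR3C1 (0.0337), with 7.86% of all genes. With the month 12 library of cashmere goats left out, edgeR called DIO2, DIO3, PRLR, ESR1 and NR3C1 (adjusted p 0.0236 to 0.0445), and 14.1% of all genes. With that of milk goats left out it called the same 5 members (adjusted p 0.0237 to 0.0435) and 13.6% of all genes. Both runs leave month 12 with 1 library, which its own month term then takes up, so they are nearly the same fit. Leaving out any other library gave 0 member calls in this contrast.

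Per length the 9 genes spanned a wide range of levels. In cashmere goats the order by mean FPKM was THRA (15.5 ± 1.87), PRLR (11.2 ± 2.95), NR3C1 (9.75 ± 2.18), DIO3 (8.06 ± 2.94), THRB (6.76 ± 0.99), PTH1R (5.91 ± 3.94), DIO2 (3.80 ± 0.94), ESR1 (1.15 ± 0.43) and GREB1 (0.275 ± 0.331; SD over months, n = 4). From PRLR down to DIO2, each neighbour in this order differed by less than the larger SD of the pair. In milk goats the order was PTH1R (21.7 ± 11.1), THRA (17.3 ± 1.06), NR3C1 (9.87 ± 3.89), PRLR (8.61 ± 3.29), THRB (6.80 ± 1.44), DIO3 (3.78 ± 3.84), DIO2 (2.17 ± 0.41), ESR1 (1.47 ± 1.23) and GREB1 (0.055 ± 0.034). There PTH1R and THRA, and the neighbours from NR3C1 down to ESR1, differed by less than the larger SD of the pair. PTH1R was thus below THRA, PRLR, NR3C1, DIO3 and THRB on average in cashmere goats and above them in milk goats, and GREB1 was the lowest member in all 8 libraries.

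Across the 8 libraries some members had similar profiles of log2 CPM. Pearson's r was 0.86 between DIO2 and DIO3, -0.94 between DIO2 and THRB and -0.92 between DIO3 and THRB. It was 0.84 between THRA and PTH1R, 0.80 between ESR1 and NR3C1 and 0.75 between PRLR and NR3C1. ESR1 and GREB1, a receptor and a gene it is known to induce in human breast cancer cells, had an r of 0.01. These values describe 8 libraries that share breed, month and composition. Among 10798 other genes, the profile most like DIO2 was that of SDC2 (r = 0.985), like DIO3 that of PLXNA2 (0.995), like THRA that of PACRGL (0.989) and like THRB that of ANTXR1 (0.991). The most like PRLR was PEAR1 (0.976), the most like ESR1 was ANGPT4 (0.968), the most like GREB1 was ILVBL (0.954), the most like NR3C1 was ATF2 (0.978), next to IGF1R (0.978), and the most like PTH1R was CCDC183 (0.991).

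The other gene table that the authors deposited holds raw counts of the same libraries over a gene set of 20780 rows and has 6 of the members, with listed gene lengths of 744 bases for DIO3 and 236325 bases for ESR1. It places DIO3 on chromosome 21, THRA on 19, ESR1 on 9, GREB1 on 11, NR3C1 on 7 and PTH1R on 22 of a build that is not named; a second row named ESR1, on chromosome 7, had 0 to 5 reads and was not used. In this table edgeR called 3 of the 6 members lower in cashmere goats, with 7.45% of all genes called. ESR1 was at -1.38 ± 0.21 (adjusted p = 0.0196), NR3C1 at -1.11 ± 0.22 (adjusted p = 0.0317) and PTH1R at -1.06 ± 0.26 (adjusted p = 0.0494). For these 3 and for THRA every cashmere goat library lay below every milk goat library. The share of all genes of the other table for which this held was not computed. In the first table it was 8.02%. DIO3 was at 1.94 ± 0.63 (adjusted p = 0.0926), GREB1 at 1.14 ± 0.55 (adjusted p = 0.208) and THRA at -0.30 ± 0.15 (adjusted p = 0.236). The count of members called fell to 0 without either library of month 3 or of month 9, was 1 without either of month 6 and was 4 without either of month 12. The count of all genes called also varied widely over these runs, as given in the closing section.

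**Figure D4:**
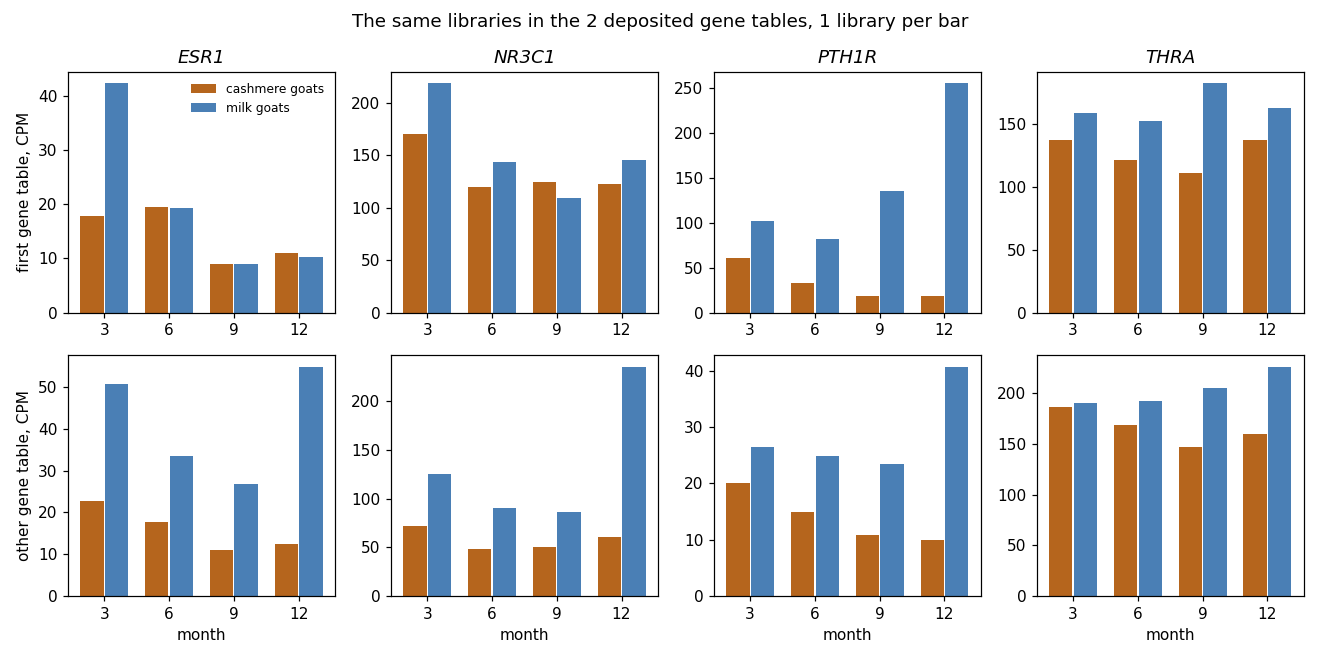
CPM (vertical axes, linear, each from 0) of 4 genes by month in the first gene table (top) and in the other gene table (bottom) of the same libraries, with cashmere goats in brown and milk goats in blue and 1 library per bar. ESR1 and NR3C1 in milk goats at month 12 stand at 10.3 and 145 CPM in the first table and at 55.0 and 236 CPM in the other.

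For DIO3, ESR1, NR3C1 and PTH1R the reads of 1 library differed between the tables to unequal degrees in the breeds. ESR1 had 2.40, 1.58, 2 and 2.13 times as many reads in the other table as in the first in cashmere goats at months 3, 6, 9 and 12, against 2.45, 3.29, 5.79 and 9.45 times in milk goats. For NR3C1 the ratios were 0.798, 0.691, 0.667 and 0.934 in cashmere goats, against 1.17, 1.19, 1.51 and 2.87 in milk goats. DIO3 had 0.327, 0.444, 0.525 and 0.338 times as many reads in the other table in cashmere goats, against 0.274, 0.383, 0.243 and 0.0870 times in milk goats. PTH1R also had the lower ratios in milk goats, at 0.625 to 1.03 in cashmere goats against 0.283 to 0.572 in milk goats. The ratio was also taken over 7678 genes of both tables that had at least 50 reads in every library of the first. Its median was 1.53 to 1.80 in cashmere goats and 1.62 to 1.90 in milk goats. For THRA the ratio was 2.17 to 2.56 in cashmere goats and 2.16 to 2.46 in milk goats. At months 6, 9 and 12, ESR1 was lower in cashmere goats in the other table and near the milk goat level in the first, and at month 3 it was lower in both. NR3C1 at month 9 was 50.6 CPM in cashmere goats and 86.1 CPM in milk goats in the other table, against 124 CPM in cashmere goats and 109 CPM in milk goats in the first. DIO3 at month 9 was higher in cashmere goats in the other table and lower in cashmere goats in the first. What each table counts within a gene is not given in the sources used here, and the part of that in these differences was not tested.

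Among clock and photoperiod genes, 8 of 13 listed genes were tested, and edgeR called none for breed (0 at an unadjusted p under 0.05) or for month 9 over month 3 (3 at an unadjusted p under 0.05). DESeq2 called only RORB, for month 9 over month 3. The melatonin receptor MTNR1B and the enzymes of melatonin synthesis, AANAT and ASMT, had at most 2 reads in any library and were not tested. Of the 8, only 1 had a positive value and 7 a negative one at month 9 over month 3, with a median of -0.63, against 0.00 over all genes. RORB, an orphan nuclear receptor related to the clock's ROR family, was at -1.31 ± 0.31 (adjusted p = 0.117) and HLF, a PAR bZIP factor driven by the clock, at -1.04 ± 0.42 (adjusted p = 0.195).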

How the data were processed

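Polyadenylated RNA of goat skin was sequenced as directional paired-end libraries, per the labels' protocols. Bowtie2 is named in the submitters' processing notes without a version; no genome build, annotation or counting method is given in those notes or the labels. The authors deposited 3 tables: raw read counts per gene, FPKM of the same genes, and raw read counts over another gene set, with another length per gene. The first count table and the FPKM table name the cashmere columns only by a word other than milk. Those columns were taken as cashmere goats because the remaining ones are named milk. The other gene set names both breeds. All sample columns were used. The 9 members, the gene lists and the cell type markers were chosen with earlier results of these data known.

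The deposited counts went into edgeR 4.0.16 (R 4.3.3) with filterByExpr by breed, TMM scaling, quasi-likelihood F tests in a model of month and breed (3 residual degrees of freedom), and Benjamini-Hochberg adjustment over all genes with a threshold of 0.05. The season model had breed, cosine and sine of a 12-month cycle and their interactions (2 residual degrees of freedom). Standard errors are the absolute fold change over the root of F. CPM used TMM factors, and correlations used log2 CPM with a prior count of 2. Intervals of 1 library are exact Poisson ones, and those of a ratio exact conditional binomial (Clopper-Pearson) ones. Only the breed test was tried on simulated counts, drawn with the same spread for all genes and no month effect. Its outcome is not given here. Alternatives were DESeq2 1.42.0, limma 3.58.1 on log2 FPKM (pseudocount 1 or 0.1), other scalings and filters, the other gene table, simpler models and leaving out libraries. All members were named; of each list, up to 4 genes past the threshold in a comparison, otherwise the 2 with the largest change, described for the breed effect and in part for the months; and as like genes those with the highest r (3 per member, at least 5 CPM on average, symbol not starting with LOC), of which the first is printed. A gene that the rule takes is not reported here.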

Additional observations from a re-analysis of the deposited data

Results flagged for a closer look

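In cashmere goats the library of month 3 stood apart from the other 3 months for 3 members, by the gap to the nearest month over the whole range (Dixon's limit for 4 values). PRLR was at 291 CPM there (gap 0.926 of the range), NR3C1 at 170 CPM (0.914) and GREB1 at 16.0 CPM (0.907). These were 3 of 18 groups of 4 months tested, where chance gives about 1 in 20, and the 4 values are different months and not replicates. The 3 values share 1 library. In milk goats month 3 was also the highest month for PRLR and NR3C1 in the first gene table, while GREB1 was at 0.814 CPM, and none of these milk goat groups was past the limit. In the other gene table month 12 was the highest milk goat month for NR3C1.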

How the results depend on the processing

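With 1 library per breed and month, calls moved more than directions. Of 429 alternative fold changes of members, 370 kept direction and side of the threshold, 31 passed it in addition, 16 were weaker and 12 turned round. Of 108 ratios within 1 month 7 moved beyond their counting interval, and of 54 ranges over months 5 did. The count of genes called between breeds (675) was 1117 in the other gene table, 346 without month in the model, 2, 4 and 2 without both libraries of month 3, 6 and 9, 1691 with DESeq2, and 1374 and 1161 with limma on log2 FPKM at pseudocounts 1 and 0.1. The members called (0) became 1 with library totals, no filter, no month term, DESeq2 and both limma fits (PTH1R each time), 3 in the other gene table, and 1 without both libraries of month 12 (GREB1, 2.63, adjusted p = 0.0489). For any difference among the months DESeq2 called 536 genes and 1 member. For month 9 over month 3 it called 1107 genes and 3 members, and edgeR without both libraries of month 12, a setting added after the data were seen, called 2028 genes and 5 members. For month 12 over month 6 DESeq2 called 94 genes and limma at pseudocount 1 called 9. For breed by season library totals gave 17 genes, no filter 118 genes and 1 member, and DESeq2 80 genes and 1 member.

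Leaving out 1 library gave 0 to 869 genes and 0 to 1 members called between breeds, 0 to 1180 genes and 0 to 3 members for month, 0 to 2027 genes and 0 to 5 members for month 9 over month 3, 0 to 452 genes and 0 to 0 members for month 12 over month 6, and 38 to 501 genes and 0 to 2 members for breed by season. In the other gene table, a setting also added later, it gave 11 to 1633 genes and 0 to 4 members. With limma at the 2 pseudocounts the breed effect of THRB was 0.0053 and 0.0084 and that of NR3C1 0.034 and 0.043. That of ESR1 was 0.019 with both month 3 libraries left out, and ran from -0.46 to 0.035 over the runs with 1 library left out. For month 9 over month 3, those runs gave -0.31 to 0.18 for THRA, -3.39 to 0.027 for GREB1 and -1.63 to 0.31 for PTH1R. ESR1 at month 12 over month 6 was at 0.16 in the other gene table. Apart from the runs with fewer libraries, the cause was not tested. The median breed effect of all genes was 0.03, against 0.14 with library totals and 0.16 and 0.23 with limma, and 207 higher and 468 lower calls became 302 and 317 with library totals and 1027 and 347 with limma at pseudocount 1. No paired analysis was possible because no breed and month has a second library and the numbers of the libraries only stand for months, which the model already holds.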
